A study of Mus musculus with 8 samples.

Results

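The genes of synaptic vesicle release described here are 45 mouse genes for presynaptic vesicle and SNARE proteins, given as a list of names with no threshold on a measured value, and the list was proposed with earlier results of these data known. They were found by gene symbol in the control tables and by Entrez identifier in the mutant tables. All 45 were present among the 17678 genes that could be joined between the tables, and all 45 were among the 12954 genes whose average across libraries reached 1 FPKM. FPKM stands for fragments per kilobase of transcript, relative to all fragments of a library. The values below, called scaled FPKM, were divided by 1 factor per library so that the libraries could be compared. The study addresses how loss of the tyrosine kinase Pyk2, encoded by Ptk2b, or of its autophosphorylation site bears on contextual fear memory. RNA of the hippocampus of C57BL/6 mice was sequenced in 4 groups of 2 libraries. KO mice carry a CRISPR knockout of Pyk2, and Y402F mice carry the Y402F substitution made with CRISPR, which replaces the tyrosine that is autophosphorylated by phenylalanine. KO controls and Y402F controls are wild-type mice, 1 pair for each line, and the labels name no further allele or agent. Age, sex, the part of Ptk2b that was removed, the number of founders and any pooling of animals in a library are not stated by the labels. The 2 libraries of a group are therefore replicates by label only, and p-values measure the spread between libraries, which may be technical.

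A presynaptic terminal stores neurotransmitter in vesicles that are tethered, docked and primed at the active zone. Calcium that enters during an action potential binds synaptotagmin on the vesicle, and the SNARE proteins synaptobrevin, syntaxin and SNAP-25 then zip together and fuse vesicle and plasma membrane. NSF and its SNAP adaptors take the spent SNARE complexes apart, and clathrin adaptors, dynamin and synaptojanin retrieve the membrane. In the hippocampus, this machinery carries transmission from the dentate gyrus through CA3 to CA1, and its isoforms differ between cell types, which is why related genes are given side by side.

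Expected counts, which are estimated read counts per gene, summed to 5756180 to 6017220 per mutant library, and no depth is known for the controls. Ptk2b stood at 55.8 and 68.4 scaled FPKM in KO and 352 and 394 in Y402F, against 308 and 307 in KO controls and 322 and 316 in Y402F controls. The libraries labelled KO were thus low in the targeted gene. Genes of the Y chromosome summed to between 15.4 and 20.3 scaled FPKM in the second KO library, the second Y402F library and both Y402F controls, and to 0.0417 to 1.05 elsewhere. KO and Y402F thus each held 1 library of either kind, whereas the KO controls and the Y402F controls differed in it. The 8 choroid plexus markers summed to 751 scaled FPKM in the second Y402F library and 1142 to 1167 in the Y402F controls, and to 39.6 to 54.0 elsewhere. Markers of CA1, CA2 and CA3, and dentate granule neurons were present in all 8 libraries. The mutant tables hold expected counts and FPKM per Entrez gene, whereas the control tables hold FPKM per Ensembl gene in the layout of the program Cufflinks. In any comparison of a mutant with its controls, genotype and the way the tables were made cannot be told apart.

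Mean levels of the release genes spanned from 1.52 scaled FPKM for Unc13c to 1091 for Snap25 and a median of 65.3. Snap25, Vamp2, Syp, Dnm1 and Rab3a together took 47.6% ± 0.220 of the summed level of the 45 genes in KO, 47.2% ± 0.249 in Y402F, against 44.4% ± 0.424 in KO controls and 44.98% ± 0.253 in Y402F controls (SD, n = 2 each). The sum over the 45 genes was 8264 ± 20.0 scaled FPKM in KO and 8212 ± 55.7 in Y402F, against 7684 ± 39.8 in KO controls and 7881 ± 8.12 in Y402F controls (SD, n = 2 each). Both mutant pairs stood above both control pairs in this sum, but the order turned round without scaling. The unscaled sum was 7870.5 ± 89.4 FPKM in KO and 7797 ± 40.5 in Y402F, against 8067 ± 49.1 in KO controls and 8303 ± 15.4 in Y402F controls. The sum of 11 neuron markers, of which Nrgn was the largest, ran the other way. It was 2753 ± 115 in KO and 2675 ± 31.1 in Y402F, against 3698 ± 87.0 in KO controls and 3823 ± 136 in Y402F controls (SD, n = 2 each). Without Nrgn the order stayed, at 1270 to 1362 in KO and 1254 to 1330 in Y402F, against 1459 to 1493 in KO controls and 1484 to 1569 in Y402F controls. Cells were not separated, so fewer cells of a type and less RNA of a gene per cell cannot be told apart in any value given here.

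**Figure D1:**
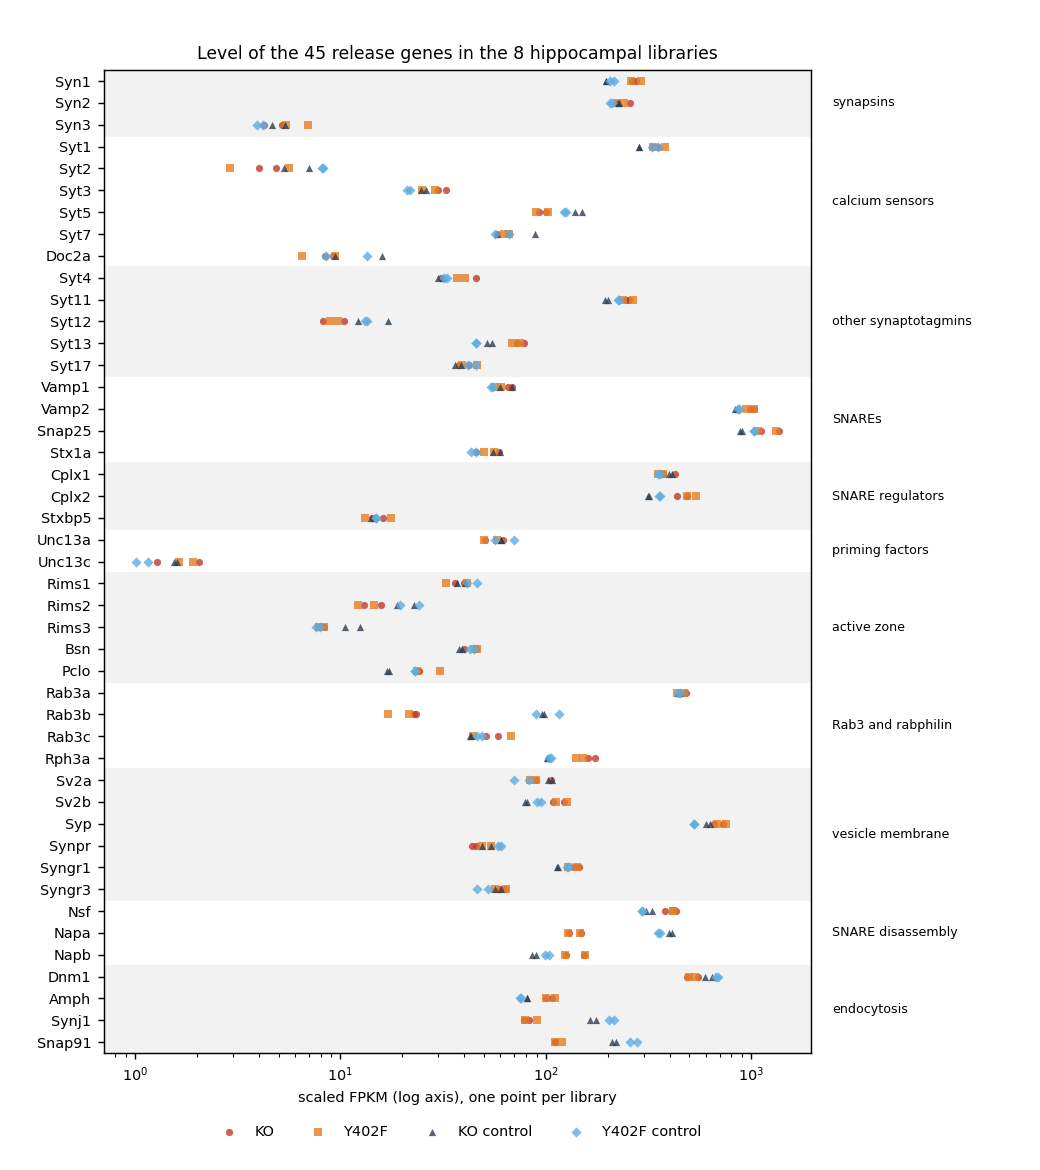
Level of each of the 45 release genes, grouped by role, on a logarithmic axis of scaled FPKM, with 1 point per library and 1 marker shape per group. Libraries of one genotype mostly lie close together, Snap25 and Vamp2 are at the top with values of 832 to 1364, and Rab3b, Napa, Synj1 and Snap91 show control points well to the right of mutant points.

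KO and Y402F hippocampi were compared first, since their tables are of 1 kind and hold counts. No release gene passed the test between KO and Y402F. The quasi-likelihood test of edgeR called 0 of 45 at a Benjamini-Hochberg adjusted p under 0.05, against a background of 0.00772% of 12950 genes tested, which is Ptk2b alone, and all 45 adjusted p-values were 1.00. DESeq2 and limma also called 0 of the 45, and 1 release gene, Syn3, had an unadjusted p under 0.05 in edgeR, against 1.92% of all genes. In 7 of 45 genes the KO libraries did not overlap the Y402F libraries, 5 higher and 2 lower, against 25.7% of all genes, 12.8% higher and 12.8% lower. The log2 differences of KO from Y402F lay between -0.39 for Syn3 and 0.25 for Rab3b, 34 of 45 were smaller than 0.1 in size and 43 were smaller than 0.25. Their standard errors, derived from the test statistic, ran from 0.093 to 0.29, which limits how small a difference these 4 libraries could show. The median was -0.0057 over the release genes and -0.0061 over all genes.

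Syn3, the synapsin with the lowest level, had 4.25 and 5.20 scaled FPKM in KO, against 6.94 and 5.46 in Y402F, and a log2 difference of -0.39 (SE 0.18, adjusted p = 1.00 by edgeR). Synpr, a vesicle membrane protein related to synaptophysin, had 45.8 and 43.7 in KO, against 54.2 and 48.7 in Y402F, a difference of -0.21 (SE 0.14, adjusted p = 1.00 by edgeR). In both genes the KO libraries were the lower ones without overlap, and the third of the largest negative differences, that of the active zone scaffold Pclo, was -0.18 with overlapping libraries. That difference was 0.027, of opposite sign, without the first Y402F library. On the positive side stood Rab3b, a small GTPase of the vesicle surface, with 23.2 and 22.8 in KO, against 17.0 and 21.5 in Y402F. The calcium sensor Syt3 had 30.0 and 32.8 in KO, against 25.0 and 28.8 in Y402F, and rabphilin (Rph3a), a Rab3 effector, had 161 and 174 in KO, against 140.2 and 152 in Y402F. Their differences were 0.25, 0.22 and 0.19, and no adjusted p was below 1.00.

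The wild-type pairs of the 2 lines, whose tables are also of 1 kind, give the background against which mutants are read. Limma called 0 of 45 release genes between KO controls and Y402F controls at an adjusted p under 0.05, where 7.98% of all 12954 genes were called, 4.82% higher and 3.16% lower. At an unadjusted p under 0.05 there were 11 release genes, against 27.1% of all genes. This number also moved with the fit. With only the 4 wild-type libraries it was 22, against 3455 of all 12954 genes, and 0 were called. With quantile normalization it was 19, against 3301 of all genes, and without the intensity trend 6, against 3372. In 38 of 45 the 2 pairs of libraries did not overlap, 16 higher and 22 lower in KO controls, against 59.0% of all genes, 28.1% higher and 30.9% lower. The smallest adjusted p was that of Sv2a, a glycoprotein of the vesicle membrane, with 103 and 107 scaled FPKM in KO controls, against 69.8 and 82.8 in Y402F controls, and a log2 difference of 0.46 (SE 0.12, adjusted p = 0.0509 by limma). Rims3, a short member of the RIM family, differed by 0.51 (SE 0.14, adjusted p = 0.0678 by limma) and the plasma membrane SNARE syntaxin 1A (Stx1a) by 0.37 (SE 0.13, adjusted p = 0.118 by limma), both higher in KO controls. Pclo differed by -0.42 (SE 0.14, adjusted p = 0.0912 by limma), the calcium sensor Syt2 by -0.37 (SE 0.26, adjusted p = 0.396 by limma) and the clathrin adaptor Snap91 by -0.31 (SE 0.082, adjusted p = 0.0548 by limma), all lower in KO controls. The count depended on the fit. The replicate block called Sv2a alone, at 0.46 with a limma adjusted p of 0.0319, and quantile normalization called 6 genes, all lower in KO controls (Syn1, Syt1, Vamp2, Dnm1, Synj1 and Snap91). Over all genes the block called 653 higher and 409 lower, and quantile normalization 389 higher and 341 lower. A term for the Y-linked pattern of the libraries called 10, of which 4 were higher (Stx1a, Sv2a, Syp and Napa) and 6 lower (Syt1, Snap25, Cplx2, Sv2b, Napb and Synj1). Over all genes this term called 783 higher and 497 lower. With it 27 release genes had an unadjusted p under 0.05 by limma, against 3918 of all 12954 genes. The wild-type pairs differ in the pattern as groups, so the term was estimated from replicates 1 and 2 of the mutants alone.

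**Figure D2:**
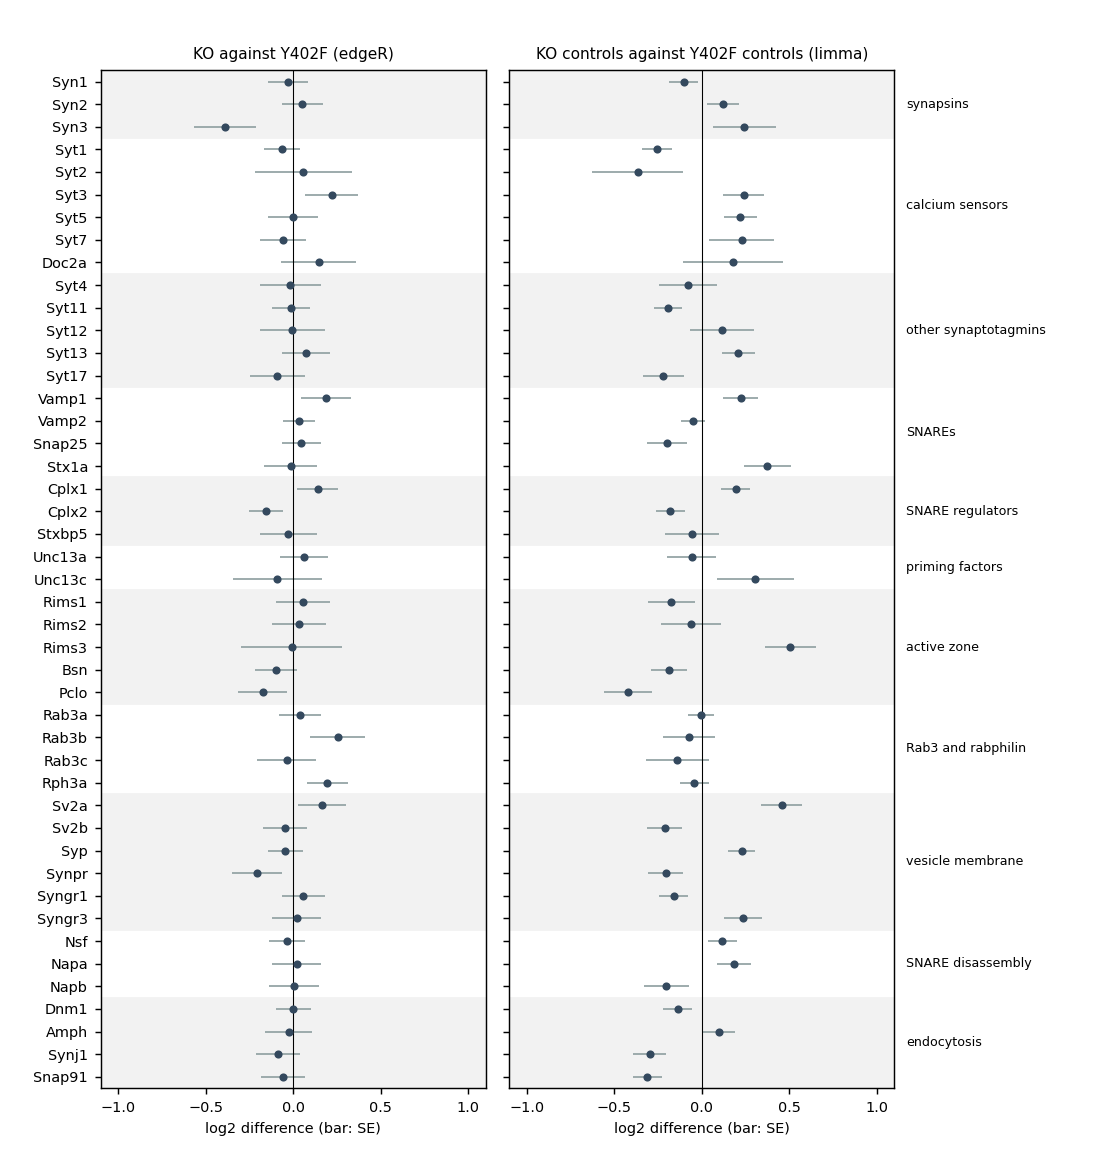
Log2 differences of the 45 release genes, grouped by role, for KO against Y402F by edgeR at the left and for KO controls against Y402F controls by limma at the right, with bars of 1 standard error on each side. The standard errors at the left were derived from the test statistic. Differences between the mutants stay between -0.39 and 0.25, and those between the wild-type pairs between -0.42 and 0.51.

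Each mutant was then set against its own controls. In KO, 23 of 45 release genes passed the limma test against KO controls, 14 higher and 9 lower, where 37.6% of all genes were called, 16.6% higher and 20.9% lower. In Y402F, 17 of 45 passed against Y402F controls, 9 higher and 8 lower, where 32.3% of all genes were called, 13.0% higher and 19.3% lower. The median log2 difference of the release genes was 0.076 in the KO line and 0.098 in the Y402F line, beside 0.00071 and 0.00042 over all genes. Libraries did not overlap between KO and KO controls in 31 of 45 release genes, 19 higher and 12 lower, against 71.0% of all genes, 35.7% higher and 35.3% lower. Between Y402F and Y402F controls they did not overlap in 35, 24 higher and 11 lower, against 68.6% of all genes, 34.5% higher and 34.1% lower. Both lines called 15 genes, all 15 in the same direction, which is 65.2% of the KO line's calls and 88.2% of the Y402F line's. The 8 higher ones were Syn1, Syt13, Cplx2, Rph3a, Sv2b, Nsf, Napb and Amph, and the 7 lower ones were Rab3b, Napa, Synj1, Snap91, Syt5, Rims2 and Dnm1. An effect common to both mutations and a difference of tables common to both lines cannot be told apart in these shared calls.

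These counts moved with the scaling. Without scaling, where the median of all genes moved to -0.12 in both lines, the calls were 6 higher and 10 lower in the KO line and 6 higher and 10 lower in the Y402F line. Over all 12954 genes they were then 1397 higher and 3320 lower in the KO line and 985 higher and 3125 lower in the Y402F line. With quantile normalization the release gene calls were 22 higher and 5 lower in the KO line and 18 higher and 7 lower in the Y402F line. Over all genes they were then 2919 higher and 2203 lower in the KO line and 2709 higher and 2142 lower in the Y402F line. Without scaling the median of the release genes was -0.059 in the KO line and -0.049 in the Y402F line, so its sign also depends on this step. Without scaling or with quantile normalization, the sign turned in 14 of the 22 differences that were not called in the KO line and in 11 of the 28 in the Y402F line. Among called genes it turned in Dnm1 alone, in the KO line. Single libraries mattered as well. In the KO line 15 calls were left without the first KO library, 14 without the first KO control and 13 without the second. Leaving out 1 library or another ended the calls of 12 genes, with limma adjusted p-values of up to 0.218. Those 12 were Syt1, Syt11, Syt12, Vamp2, Snap25, Rims2, Rims3, Pclo, Syngr1, Nsf, Dnm1 and Amph. In the Y402F line the calls of 6 genes ended in this way (Syn1, Syt2, Syt5, Rims2, Sv2b and Napb), with limma adjusted p-values of up to 0.177. Under every alternative run, 11 calls held in each line. Held in both lines were 7 of these, namely Cplx2, Rph3a and Syt13, which were higher, and Napa, Rab3b, Snap91 and Synj1, which were lower.

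Markers of some cell types moved in the same comparisons, and few or none of others did. Limma called 0 of 8 microglia markers in either line. Of 6 CA2 and CA3 markers it called 0 in the KO line and 1 in the Y402F line. Of 6 endothelial markers 1 was lower in each line. Of 8 oligodendrocyte markers, 2 were higher and 3 lower in the KO line, and 4 were higher and 2 lower in the Y402F line. Of 11 neuron markers tested, 3 were higher and 5 lower in KO than in KO controls, and 2 were higher and 3 lower in Y402F than in Y402F controls, beside 37.6% and 32.3% of all genes called in these comparisons. Of 6 dentate granule markers, 5 were higher in KO and 3 in Y402F, each against its controls, and none was lower, beside 16.6% and 13.0% of all genes higher. These markers summed to 129.9 to 135 scaled FPKM in KO and 151 to 152 in Y402F, against 89.9 to 91.8 in KO controls and 111 to 115 in Y402F controls. Between the wild-type pairs, 3 of these 6 markers were lower in KO controls, where 3.16% of all genes were lower. Of 8 astrocyte markers, 3 were higher (Slc1a2, Slc1a3 and Aqp4) and 3 lower (Aldoc, Aldh1l1 and Fgfr3) in the KO line, and 1 was higher (Slc1a2) and the same 3 lower in the Y402F line. All 8 summed to 1161 to 1187 in KO and 1103 to 1128 in Y402F, against 2104 to 2183 in KO controls and 1620.5 to 1657 in Y402F controls. Without Aldoc the order turned round, at 803 to 820.3 in KO and 786 to 791 in Y402F, against 689 to 715 in KO controls and 702 to 714 in Y402F controls. The part of these cell types in the release gene values was not tested.

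**Figure D3:**
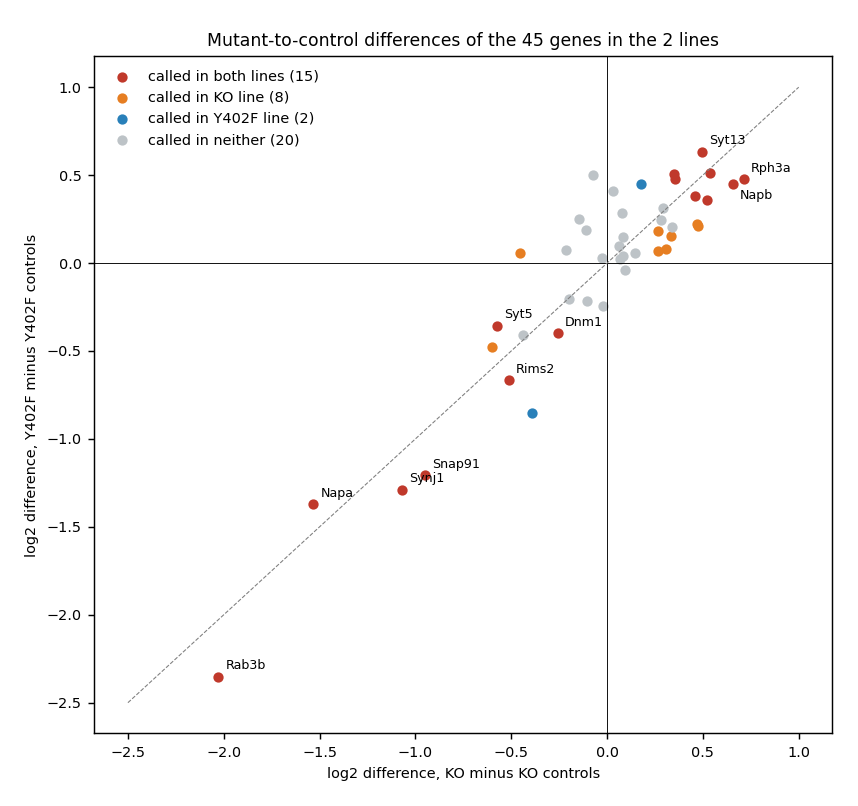
Log2 difference of each of the 45 release genes from controls, in the KO line on the horizontal axis and in the Y402F line on the vertical axis, coloured by the lines in which limma called it, with the dashed line marking equal differences. Rab3b, Napa, Synj1 and Snap91 stand apart at the lower left with differences of -0.95 to -2.35, and the others lie nearer to 0 on both axes.

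Synapsins coat vesicles and hold them in the reserve pool. Syn1 stood at 264 and 276 scaled FPKM in KO and 259 and 290.4 in Y402F, against 196 and 196 in KO controls and 216 and 206 in Y402F controls. Both mutant pairs were above both control pairs without overlap, and the log2 difference was 0.46 (SE 0.082, adjusted p = 0.00319 by limma) in the KO line and 0.38 (SE 0.082, adjusted p = 0.00909 by limma) in the Y402F line. Syn2, at about the same level, had 222 and 257 scaled FPKM in KO and 221 and 239.6 in Y402F, against 227 and 225 in KO controls and 209 and 206 in Y402F controls. Its differences of 0.081 and 0.15 did not pass. Syn3 was far lower, at 4.25 and 5.20 scaled FPKM in KO and 6.94 and 5.46 in Y402F, against 5.37 and 4.65 in KO controls and 3.93 and 4.20 in Y402F controls. Its differences of -0.073 in the KO line and 0.50 in the Y402F line did not pass either. Syn1 overlaps the gene Araf on the opposite strand, and whether reads were counted by strand is not stated.

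Of the 6 calcium sensors, Syt1, the main sensor for fast synchronous release, was the most abundant. Syt1 had 350.1 and 333 scaled FPKM in KO and 379 and 334 in Y402F, against 283 and 285 in KO controls and 327 and 352 in Y402F controls. The log2 difference was 0.27 (SE 0.085, adjusted p = 0.0373 by limma) in the KO line and 0.068 (SE 0.085, adjusted p = 0.566 by limma) in the Y402F line. The KO and Y402F libraries of Syt1 overlapped each other, while the KO controls lay below the Y402F controls. Syt2, a fast sensor best known from the hindbrain and from inhibitory terminals, was scarce, at 4.84 and 4.02 scaled FPKM in KO and 5.64 and 2.88 in Y402F, against 7.01 and 5.30 in KO controls and 8.09 and 8.22 in Y402F controls. The first and second Y402F libraries differed widely in Syt2, and its difference was -0.39 (SE 0.26, adjusted p = 0.266 by limma) in the KO line and -0.85 (SE 0.26, adjusted p = 0.0359 by limma) in the Y402F line. Syt5 was lower in both mutants, with 92.7 and 99.9 scaled FPKM in KO and 90.0 and 103 in Y402F, against 138 and 149.9 in KO controls and 122 and 125 in Y402F controls. Its differences were -0.58 (SE 0.096, adjusted p = 0.00229 by limma) in the KO line and -0.36 (SE 0.096, adjusted p = 0.0228 by limma) in the Y402F line, and no mutant library reached a control library. Syt3 differed by 0.29 and 0.31, Syt7, a slow high-affinity sensor, by -0.21 and 0.072, and Doc2a, a sensor linked to spontaneous and asynchronous release, by -0.44 and -0.41 in the KO and Y402F lines. None of these 3 passed.

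The other synaptotagmins were Syt4, Syt11, Syt12, Syt13 and Syt17, several of which bind calcium poorly or not at all. Syt11 was the most abundant, with 254 and 244 scaled FPKM in KO and 267 and 236 in Y402F, against 201 and 194 in KO controls and 227 and 224 in Y402F controls. Against controls it differed by 0.34 (SE 0.082, adjusted p = 0.0134 by limma) in the KO line and 0.15 (SE 0.082, adjusted p = 0.189 by limma) in the Y402F line. Syt13 had 72.3 and 78.6 scaled FPKM in KO and 68.4 and 75.0 in Y402F, against 54.7 and 51.6 in KO controls and 45.8 and 45.8 in Y402F controls. In Syt13 both mutant pairs were above both control pairs, with differences of 0.50 (SE 0.096, adjusted p = 0.00463 by limma) in the KO line and 0.63 (SE 0.096, adjusted p = 0.00157 by limma) in the Y402F line, where it was the largest rise of any release gene. Syt12 ran the other way, at 8.18 and 10.4 scaled FPKM in KO and 8.88 and 9.69 in Y402F, against 17.1 and 12.2 in KO controls and 13.4 and 13.1 in Y402F controls. Against controls it differed by -0.60 (SE 0.18, adjusted p = 0.0322 by limma) in the KO line and -0.48 (SE 0.18, adjusted p = 0.0796 by limma) in the Y402F line. Syt4 and Syt17 did not pass in either line, with differences between -0.041 and 0.28.

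SNARE proteins carry out the fusion itself. Snap25, the most abundant release gene, had 1364 and 1119.8 scaled FPKM in KO and 1321 and 1082 in Y402F, against 881 and 905 in KO controls and 1026 and 1025 in Y402F controls. The first library of each mutant was higher than the second, a spread that the controls did not show. The difference of Snap25 was 0.47 (SE 0.12, adjusted p = 0.0135 by limma) in the KO line and 0.22 (SE 0.12, adjusted p = 0.177 by limma) in the Y402F line. Vamp2, the synaptobrevin of most forebrain vesicles, had 991 and 1031 scaled FPKM in KO and 939.6 and 1035 in Y402F, against 832 and 849.9 in KO controls and 875 and 865 in Y402F controls. Its difference was 0.27 (SE 0.070, adjusted p = 0.0180 by limma) in the KO line and 0.18 (SE 0.070, adjusted p = 0.0807 by limma) in the Y402F line, with all mutant libraries above all control libraries. Vamp1 and Stx1a did not pass in either line, with differences of 0.062 and -0.15 in the KO line and 0.098 and 0.25 in the Y402F line.

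Complexins clamp and promote SNARE assembly, and Cplx1 and Cplx2 are the isoforms described here. Cplx2, the main complexin of excitatory forebrain neurons, had 485 and 434 scaled FPKM in KO and 538 and 484 in Y402F, against 313 and 318 in KO controls and 359 and 356 in Y402F controls. All mutant libraries were above all control libraries, with a difference of 0.54 (SE 0.083, adjusted p = 0.00152 by limma) in the KO line and 0.51 (SE 0.083, adjusted p = 0.00221 by limma) in the Y402F line. Cplx1 had 424 and 372 scaled FPKM in KO and 351 and 371 in Y402F, against 398 and 411 in KO controls and 357 and 349.7 in Y402F controls. Its differences of -0.026 and 0.030 did not pass. The ratio of Cplx2 to Cplx1 was 1.15 ± 0.0154 in KO and 1.42 ± 0.161 in Y402F, against 0.779 ± 0.00937 in KO controls and 1.01 ± 0.0102 in Y402F controls (SD, n = 2 each). Ratios between genes were not tested and are given as values. Stxbp5 (tomosyn), an inhibitor of SNARE assembly, did not pass, at 0.081 and 0.037.

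Priming factors and the active zone make docked vesicles ready to fuse. Unc13a (Munc13-1), the main priming factor, had 50.8 and 61.9 scaled FPKM in KO and 57.9 and 50.0 in Y402F, against 60.3 and 60.4 in KO controls and 56.5 and 69.7 in Y402F controls. Unc13c, which is best known from the cerebellum, was the scarcest release gene. Neither passed in either line, with differences of -0.10 and 0.031 in the KO line and -0.22 and 0.41 in the Y402F line. Among the scaffolds, Bsn (bassoon) was the most abundant, with 39.7 and 45.5 scaled FPKM in KO and 46.0 and 45.1 in Y402F, against 37.7 and 38.9 in KO controls and 44.6 and 42.9 in Y402F controls, and did not pass. Its large relative Pclo (piccolo) had 23.8 and 24.2 scaled FPKM in KO and 30.6 and 23.6 in Y402F, against 17.3 and 16.8 in KO controls and 23.1 and 23.1 in Y402F controls. On the log2 scale the difference was 0.47 (SE 0.14, adjusted p = 0.0251 by limma) in the KO line and 0.21 (SE 0.14, adjusted p = 0.266 by limma) in the Y402F line. The KO controls were the lowest libraries for Pclo, and both mutants and the Y402F controls lay at 23.1 or above. Rims2, a RIM that recruits calcium channels, was lower in both mutants, with 15.7 and 12.9 scaled FPKM in KO and 14.5 and 12.2 in Y402F, against 22.8 and 18.9 in KO controls and 24.2 and 19.5 in Y402F controls. Its difference was -0.51 (SE 0.17, adjusted p = 0.0437 by limma) in the KO line and -0.67 (SE 0.17, adjusted p = 0.0178 by limma) in the Y402F line. Rims3 had 7.78 and 8.35 scaled FPKM in KO and 8.35 and 7.87 in Y402F, against 10.5 and 12.5 in KO controls and 7.92 and 7.61 in Y402F controls. The KO controls stood above the other 6 libraries. Its difference was -0.46 (SE 0.14, adjusted p = 0.0372 by limma) in the KO line and 0.056 (SE 0.14, adjusted p = 0.791 by limma) in the Y402F line. Rims3 also rested on only 41 to 45 expected counts per mutant library, the smallest number of any release gene.

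Rab3 proteins tether vesicles through effectors such as rabphilin and the RIMs. Rab3a, the main brain isoform, had 451 and 482 scaled FPKM in KO and 435 and 472 in Y402F, against 441 and 448 in KO controls and 451 and 442 in Y402F controls. Its differences of 0.067 and 0.022 did not pass. Rab3b had 23.2 and 22.8 scaled FPKM in KO and 17.0 and 21.5 in Y402F, against 95.2 and 98.4 in KO controls and 115 and 89.7 in Y402F controls. It had the largest difference of all release genes, with KO at 23.7% of the KO control level and a log2 difference of -2.03 (SE 0.15, adjusted p = 2.86e-05 by limma), and Y402F at 18.8% of the Y402F control level and a difference of -2.35 (SE 0.15, adjusted p = 1.33e-05 by limma). The 4 mutant libraries lay between 17.0 and 23.2, far under the 4 control libraries at 89.7 to 115. Rab3c did not pass, at 0.34 and 0.20, and its Y402F libraries were apart, at 68.0 and 44.0. Rph3a had 161 and 174 scaled FPKM in KO and 140.2 and 152 in Y402F, against 102 and 101 in KO controls and 106 and 104 in Y402F controls. Against controls it differed by 0.71 (SE 0.084, adjusted p = 0.000370 by limma) in the KO line, the largest rise there, and 0.48 (SE 0.084, adjusted p = 0.00346 by limma) in the Y402F line.

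Among the 6 vesicle membrane proteins, Syp (synaptophysin) was the most abundant, with 659.9 and 731 scaled FPKM in KO and 683 and 750.0 in Y402F, against 628 and 602 in KO controls and 524 and 525 in Y402F controls. The Y402F controls were the lowest libraries, and the difference of Syp was 0.18 (SE 0.079, adjusted p = 0.113 by limma) in the KO line and 0.45 (SE 0.079, adjusted p = 0.00346 by limma) in the Y402F line. Sv2b, a transporter-like glycoprotein, had 123 and 108 scaled FPKM in KO and 127 and 112 in Y402F, against 79.2 and 80.5 in KO controls and 90.8 and 94.6 in Y402F controls, with all mutant libraries above all control libraries. Its difference was 0.52 (SE 0.10, adjusted p = 0.00448 by limma) in the KO line and 0.36 (SE 0.10, adjusted p = 0.0263 by limma) in the Y402F line. Its relative Sv2a did not pass, at -0.11 and 0.19. Syngr1 (synaptogyrin 1) had 138 and 145 scaled FPKM in KO and 129 and 141 in Y402F, against 114 and 114 in KO controls and 128 and 127 in Y402F controls. The log2 difference was 0.31 (SE 0.082, adjusted p = 0.0195 by limma) in the KO line and 0.077 (SE 0.082, adjusted p = 0.499 by limma) in the Y402F line. Synpr and Syngr3 did not pass in either line, with differences between -0.21 and 0.29.

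NSF is the ATPase that takes SNARE complexes apart, and Napa and Napb encode its adaptors alpha-SNAP and beta-SNAP. The most abundant of the 3 was Nsf, with 380.3 and 432 scaled FPKM in KO and 414 and 417 in Y402F, against 328 and 307 in KO controls and 292 and 293 in Y402F controls. Its difference was 0.35 (SE 0.082, adjusted p = 0.0107 by limma) in the KO line and 0.50 (SE 0.082, adjusted p = 0.00218 by limma) in the Y402F line. Napa had 129.7 and 148 scaled FPKM in KO and 128 and 146 in Y402F, against 409.7 and 397 in KO controls and 358 and 351 in Y402F controls. KO held 34.5% of the KO control level, a log2 difference of -1.53 (SE 0.096, adjusted p = 1.35e-05 by limma), and Y402F held 38.6% of the Y402F control level, a difference of -1.37 (SE 0.096, adjusted p = 2.46e-05 by limma). Napb moved the opposite way, with 153 and 126 scaled FPKM in KO and 155 and 124 in Y402F, against 85.9 and 89.5 in KO controls and 98.8 and 103 in Y402F controls. On the log2 scale the difference was 0.66 (SE 0.13, adjusted p = 0.00503 by limma) in the KO line and 0.45 (SE 0.13, adjusted p = 0.0296 by limma) in the Y402F line. The ratio of Napa to Napb was 1.01 ± 0.235 in KO and 1.00 ± 0.253 in Y402F, against 4.60 ± 0.236 in KO controls and 3.51 ± 0.158 in Y402F controls (SD, n = 2 each). Napa RNA thus exceeded Napb RNA in the control tables, and both stood close to each other in the mutant tables.

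Of the 4 endocytic genes, Dnm1 (dynamin 1), the GTPase that pinches vesicles off, was the most abundant. Dnm1 had 485 and 547 scaled FPKM in KO and 499 and 530.3 in Y402F, against 593 and 641 in KO controls and 685 and 671 in Y402F controls. On the log2 scale the difference was -0.26 (SE 0.082, adjusted p = 0.0384 by limma) in the KO line and -0.40 (SE 0.082, adjusted p = 0.00725 by limma) in the Y402F line. In the KO line the sign turned under quantile normalization, where the difference was 0.020 with a limma adjusted p of 0.836. Synj1 (synaptojanin 1), the phosphatase that strips clathrin coats, had 82.3 and 78.3 scaled FPKM in KO and 90.8 and 79.5 in Y402F, against 176 and 164 in KO controls and 215 and 203 in Y402F controls. Every mutant library was under every control library, and KO stood at 47.3% of the KO controls and Y402F at 40.7% of the Y402F controls. The differences were -1.07 (SE 0.095, adjusted p = 7.77e-05 by limma) and -1.29 (SE 0.095, adjusted p = 3.05e-05 by limma). Snap91 (AP180), which sets vesicle size as clathrin assembles, had 111 and 110.2 scaled FPKM in KO and 119 and 111 in Y402F, against 220.2 and 209 in KO controls and 257 and 277 in Y402F controls. Its differences were -0.95 (SE 0.082, adjusted p = 7.01e-05 by limma) in the KO line and -1.21 (SE 0.082, adjusted p = 2.13e-05 by limma) in the Y402F line. Amph (amphiphysin), which recruits dynamin, was the only endocytic member that was higher, with 99.9 and 107 scaled FPKM in KO and 99.6 and 111 in Y402F, against 80.8 and 80.6 in KO controls and 74.8 and 75.9 in Y402F controls. The log2 difference was 0.36 (SE 0.090, adjusted p = 0.0156 by limma) in the KO line and 0.48 (SE 0.090, adjusted p = 0.00484 by limma) in the Y402F line.

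**Figure D4:**
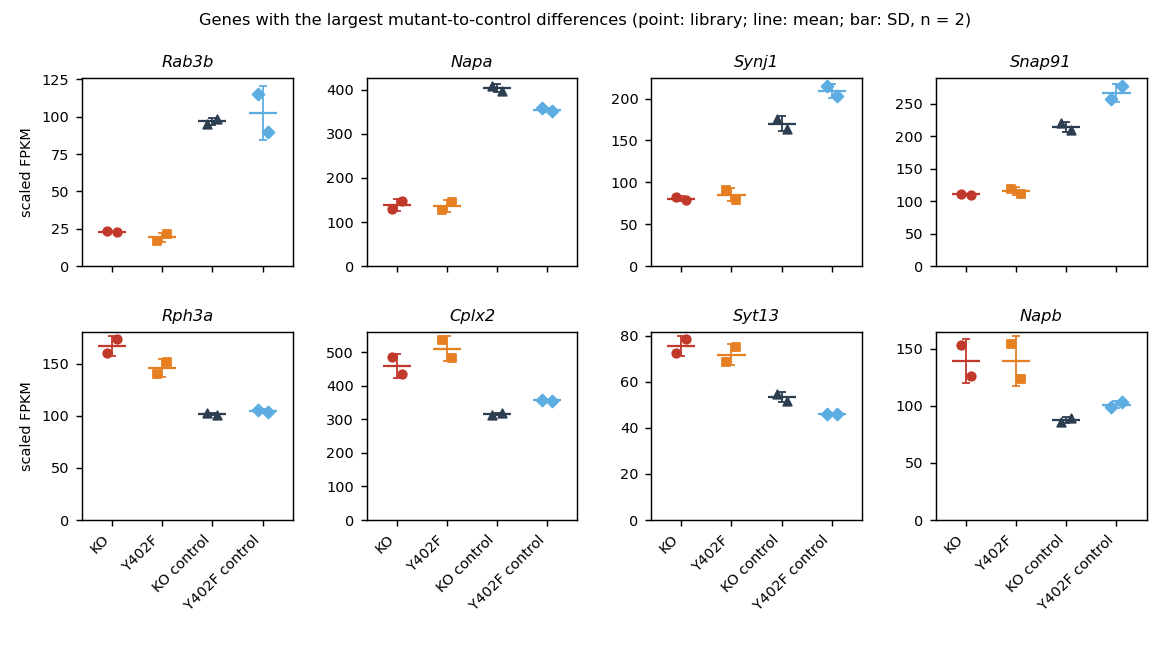
Scaled FPKM of the 4 release genes with the largest falls and of 4 with large rises against controls, by group, with 1 point per library, a line at the mean and a bar of 1 SD (n = 2). In each panel the means of KO and Y402F lie nearer to each other than to either control mean, though KO is above Y402F without overlap in Rab3b and Rph3a. Both mutants are apart from both control pairs, most in Rab3b, where the mutant libraries are at 17.0 to 23.2 and the controls at 89.7 to 115.

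The promoters of the 4 genes with the largest falls in both lines are shown because these genes moved together against controls. The sequences are from RefSeq on GRCm38.p6 and were kept to the bases upstream of the gene start in GENCODE M21. Capitals mark the motifs searched on both strands, which were the CRE (TGACGTCA), the GC box (GGGCGG), the TATA box (TATAAA) and the CCAAT box (CCAAT), and adjoining or overlapping matches were marked together. Rab3b is on the plus strand at chr4:108878820-108879062, Napa on the plus strand at chr7:16098330-16098457, Synj1 on the minus strand at chr16:91011309-91011558 and Snap91 on the minus strand at chr9:86880709-86880958.
Rab3b: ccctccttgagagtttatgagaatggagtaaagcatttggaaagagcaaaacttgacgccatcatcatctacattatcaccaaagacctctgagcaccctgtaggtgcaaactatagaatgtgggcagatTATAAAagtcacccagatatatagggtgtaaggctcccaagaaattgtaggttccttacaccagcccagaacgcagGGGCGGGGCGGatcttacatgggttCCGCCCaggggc
Napa: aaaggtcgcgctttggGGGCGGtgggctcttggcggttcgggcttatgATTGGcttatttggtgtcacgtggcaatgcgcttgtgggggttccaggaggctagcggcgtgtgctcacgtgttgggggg
Synj1: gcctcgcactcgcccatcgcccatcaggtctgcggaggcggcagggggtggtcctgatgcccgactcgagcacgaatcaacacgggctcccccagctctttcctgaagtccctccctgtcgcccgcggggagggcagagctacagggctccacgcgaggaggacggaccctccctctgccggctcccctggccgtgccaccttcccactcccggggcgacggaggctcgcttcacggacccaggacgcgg
Snap91: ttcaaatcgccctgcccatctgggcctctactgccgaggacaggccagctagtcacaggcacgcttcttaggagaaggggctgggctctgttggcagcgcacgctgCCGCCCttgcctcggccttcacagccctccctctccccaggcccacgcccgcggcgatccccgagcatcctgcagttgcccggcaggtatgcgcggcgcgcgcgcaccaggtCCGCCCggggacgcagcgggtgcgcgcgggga

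The Rab3b window held 3 GC box matches and 1 TATA box match, that of Napa 1 GC box and 1 CCAAT match, and that of Snap91 2 GC box matches, while the Synj1 window held none of the 4 motifs. G and C made up 71.2% of the bases in Synj1 and in Snap91, 61.7% in Napa and 48.1% in Rab3b. No motif was present in all 4. The windows were of unlike length, with 243 bases in Rab3b, 128 in Napa and 250 in Synj1 and in Snap91. Promoters were found for 33 of the 45 release genes, as 44 windows of 250 bases, and a GC box was in 56.8% of them, against 32.7% of all 32851 promoter windows. The CCAAT box was in 25.0% of the release gene windows and 33.8% of all, the TATA box in 6.82% and 12.4%, and the CRE in 2.27% and 1.55%. A match is a run of letters and not a measured site, and windows of 1 gene overlap.

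The difference between the mutant effects was tested directly, since a table difference that is the same in both lines cancels in it. Limma called 0 of 45 release genes for the KO effect minus the Y402F effect, where 0.0309% of all genes were called. At an unadjusted p under 0.05 there were 2, Rims3 at -0.51 (SE 0.20, adjusted p = 0.345 by limma) and Syp at -0.27 (SE 0.11, adjusted p = 0.360 by limma), against 13.0% of all genes. This number depended on the fit. Without scaling it was also 2, against 1719 of all 12954 genes, and with quantile normalization 13, against 1588. In both fits 0 release genes were called. The 8 genes called in the KO line alone (Syt1, Syt11, Syt12, Vamp2, Snap25, Rims3, Pclo and Syngr1) and the 2 called in the Y402F line alone (Syt2 and Syp) are therefore not shown to differ between the lines. The largest positive differences were those of Syt2 (0.46), Rab3b (0.32) and Pclo (0.26), and the largest negative ones those of Syn3 (-0.57), Rims3 and Stx1a (-0.39). A term for the Y-linked pattern called 1 gene, Snap25, at 0.53 with a limma adjusted p of 0.0281, where 135 of all 12954 genes were called. With this term 19 release genes had an unadjusted p under 0.05, against 2619 of all genes. Neither control pair held both kinds of library, so this term was estimated from replicates 1 and 2 of the mutants alone. In Snap25 these replicates differed by 0.28 in KO and 0.29 in Y402F, and the difference of the mutant effects was 0.25 without the term.

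Further genes of the same pathway were read from 7 lists that hold 91 genes, of which 86 were tested. In KO against Y402F, edgeR called 0 of the 86 and 1 had an unadjusted p under 0.05, and DESeq2 and limma also called 0. Of all genes, edgeR called 0.00772%, and 1.92% had such an unadjusted p. In KO against KO controls 14 were higher and 15 lower, where 16.6% of all genes were higher and 20.9% lower. In Y402F against Y402F controls 17 were higher and 16 lower, where the shares of all genes were 13.0% and 19.3%. The medians of the list were 0.074 in the KO line and 0.018 in the Y402F line. Between KO controls and Y402F controls 5 were higher and 3 lower, against 7.98% of all genes called. The difference of the mutant effects called 0, against 0.0309% of all genes, with 11 at an unadjusted p under 0.05, against 13.0% of all genes.

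Among SNAREs and Munc18 proteins, 3 of 12 were higher and 2 lower in the KO line, and 4 were higher and 2 lower in the Y402F line, beside 37.6% and 32.3% of all genes called in either direction. Stxbp2 (Munc18-2) had 8.09 and 9.08 scaled FPKM in KO and 7.12 and 7.01 in Y402F, against 24.2 and 33.1 in KO controls and 18.7 and 25.1 in Y402F controls, with a limma adjusted p of 0.000352 in the KO line and 0.000598 in the Y402F line. Vamp4 had 18.8 and 18.5 scaled FPKM in KO and 19.7 and 18.9 in Y402F, against 33.8 and 37.0 in KO controls and 33.2 and 27.9 in Y402F controls, with adjusted p-values of 0.000797 and 0.00520 by limma. Stxbp5l was higher by 0.89 (SE 0.23, adjusted p = 0.0174 by limma) in the KO line and 0.97 (SE 0.23, adjusted p = 0.0139 by limma) in the Y402F line.

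Of 23 endocytic genes, 1 was higher and 4 lower in the KO line, against 37.6% of all genes called there. In the Y402F line 4 were higher and 7 lower, against 32.3% of all genes. Subunits of the clathrin adaptor AP-2 went in opposite directions. Ap2m1 had 242 and 254 scaled FPKM in KO and 242 and 257 in Y402F, against 436 and 425 in KO controls and 456 and 424 in Y402F controls, a difference of -0.79 (SE 0.076, adjusted p = 0.000115 by limma) in the KO line and -0.82 (SE 0.076, adjusted p = 0.000107 by limma) in the Y402F line. Ap2b1 had 105 and 112 scaled FPKM in KO and 103 and 107 in Y402F, against 71.3 and 71.5 in KO controls and 66.5 and 67.8 in Y402F controls, a difference of 0.59 (SE 0.083, adjusted p = 0.000914 by limma) in the KO line and 0.64 (SE 0.083, adjusted p = 0.000670 by limma) in the Y402F line. Itsn1 (intersectin 1), an endocytic scaffold, was lower, with a log2 difference of -1.33 (SE 0.15, adjusted p = 0.000278 by limma) in the KO line and -1.20 (SE 0.15, adjusted p = 0.000537 by limma) in the Y402F line. Between the wild-type pairs, KO controls were higher in Ap2s1 by 0.53 (SE 0.11, adjusted p = 0.0290 by limma) and lower in the clathrin heavy chain Cltc, at -0.35 (SE 0.086, adjusted p = 0.0454 by limma).

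The vesicular proton pump acidifies vesicles, and transporters use this gradient to load transmitter. Of its 14 genes, 5 were higher and 3 lower in the KO line, where 16.6% of all genes were higher and 20.9% lower. In the Y402F line 6 were higher and 3 lower, where 13.0% of all genes were higher and 19.3% lower. Atp6v1e1 had 255 and 265 scaled FPKM in KO and 247 and 282 in Y402F, against 569 and 577 in KO controls and 426 and 497 in Y402F controls. The log2 difference was -1.14 (SE 0.097, adjusted p = 6.48e-05 by limma) in the KO line and -0.80 (SE 0.097, adjusted p = 0.000483 by limma) in the Y402F line. Atp6v1h was lower, with a log2 difference of -0.70 (SE 0.096, adjusted p = 0.000838 by limma) in the KO line and -0.64 (SE 0.096, adjusted p = 0.00149 by limma) in the Y402F line. Atp6ap1 was lower in both lines, at -0.59 (SE 0.096, adjusted p = 0.00196 by limma) in the KO line and -0.29 (SE 0.096, adjusted p = 0.0488 by limma) in the Y402F line. Atp6v1b2 differed by 0.16 (SE 0.10, adjusted p = 0.231 by limma) in the KO line and was higher in the Y402F line by 0.59 (SE 0.10, adjusted p = 0.00273 by limma). Between the wild-type pairs, 3 pump genes (Atp6v1f, Atp6v0d1 and Atp6v1b2) were higher in KO controls, by 0.62, 0.41 and 0.41, where 4.82% of all genes were higher.

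The remaining lists were smaller. Over all genes, 37.6% were called in the KO line, 32.3% in the Y402F line and 7.98% between the wild-type pairs. Of 12 priming and scaffold genes, 1 was higher (Cadps2) and 2 lower (Rimbp2 and Baiap3) in the KO line, and 1 was lower (Rimbp2) in the Y402F line. Rimbp2, which links RIMs to calcium channels, had 23.3 and 27.9 scaled FPKM in KO and 27.1 and 26.1 in Y402F, against 34.5 and 31.5 in KO controls and 50.6 and 46.5 in Y402F controls, so that its Y402F controls stood apart, and it also differed between the wild-type pairs by -0.54 (SE 0.12, adjusted p = 0.0362 by limma). Of 7 further sensors and complexins, Doc2b was higher and Cplx3 lower in the KO line, and Cplx3 was lower in the Y402F line. Of 7 vesicle membrane and adaptor genes, Scamp1 was higher and Sypl lower in the KO line, Svop higher and Sypl lower in the Y402F line, and Napg was lower in KO controls than in Y402F controls, at -0.55 (SE 0.13, adjusted p = 0.0389 by limma). Of 11 Rab genes and partners, 2 were higher and 2 lower in the KO line, and 2 higher and 1 lower in the Y402F line, with Rab3ip lower in both, at -0.64 and -0.78. Rabac1 was lower in the KO line and higher in KO controls than in Y402F controls, at -0.82 and 0.87, with 98.8 and 119 scaled FPKM in KO and 80.6 and 119 in Y402F, against 175 and 212 in KO controls and 117 and 94.1 in Y402F controls.

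Each isoform ratio was taken within 1 library, so the scaling factor of the library cancels in it. A difference between the kinds of table that varies by gene does not cancel, so between mutants and controls it cannot be told apart from genotype. Rab3a exceeded Rab3b by 20.3 ± 1.27 times in KO and 23.8 ± 2.53 times in Y402F, against 4.60 ± 0.0562 in KO controls and 4.42 ± 0.714 in Y402F controls (SD, n = 2 each). The ratio of Syn1 to Syn2 was 1.13 ± 0.0804 in KO and 1.19 ± 0.0293 in Y402F, against 0.867 ± 0.00562 in KO controls and 1.02 ± 0.0221 in Y402F controls. The ratio of Sv2b to Sv2a was 1.20 ± 0.251 in KO and 1.38 ± 0.193 in Y402F, against 0.763 ± 0.0120 in KO controls and 1.22 ± 0.113 in Y402F controls. The KO controls were the group that stood apart there. Syt1 took 36.0% ± 0.707 of the level of 10 synaptotagmin genes in KO and 37.0% ± 2.01 in Y402F, against 32.8% ± 0.427 in KO controls and 37.1% ± 0.881 in Y402F controls. The ratio of Syngr1 to Syngr3 was 2.30 ± 0.00990 in KO and 2.23 ± 0.0511 in Y402F, against 1.96 ± 0.0829 in KO controls and 2.59 ± 0.214 in Y402F controls.

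Replicates were not equally close in the groups. The median size of the log2 difference between the 2 libraries of a group was 0.15 in KO and 0.16 in Y402F, against 0.059 in KO controls and 0.050 in Y402F controls, while over all genes it was 0.17 in KO and 0.19 in Y402F, against 0.15 in KO controls and 0.15 in Y402F controls. Replicate 1 differed from replicate 2 in the same direction in KO and in Y402F for 36 of 45 release genes, and for 64.0% of all genes. In both mutants the first library was the one low in Y-linked genes. In Y402F the release genes with longer transcripts tended to be higher in the first library, with a Spearman rho of 0.64 over the 45 genes, against 0.31 over all genes. In KO this rho was 0.12 over the 45 genes and 0.12 over all genes. These are correlations across genes of the same libraries, and genes are not independent replicates. The log2 difference of KO from Y402F had a rho of -0.37 with transcript length over the release genes and -0.14 over all genes, and that of KO controls from Y402F controls one of -0.33 and -0.40.

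**Figure D5:**
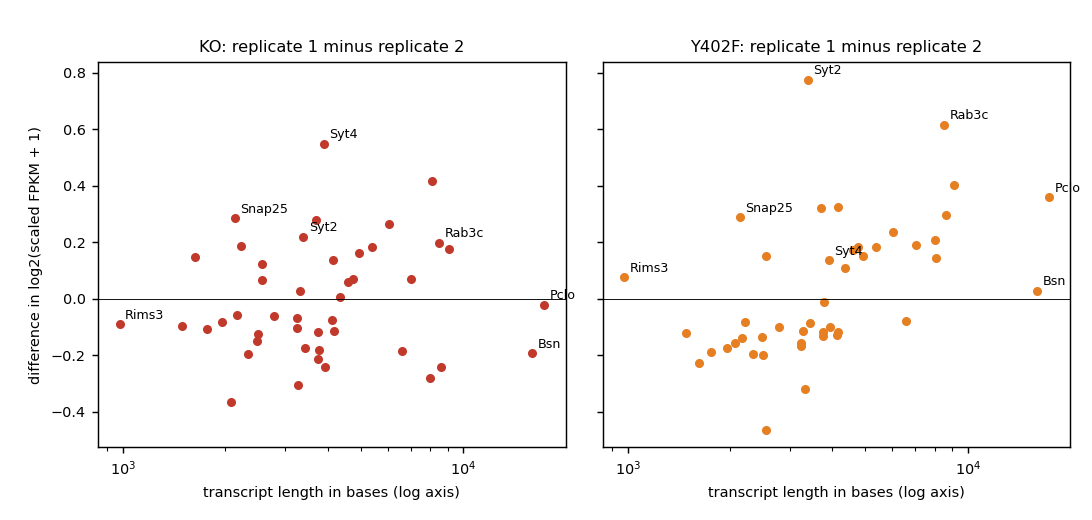
Difference of replicate 1 from replicate 2 in log2(scaled FPKM + 1) for the 45 release genes, against transcript length in bases on a logarithmic axis, for KO at the left and Y402F at the right. The points of Y402F slope upward with length, with a Spearman rho of 0.64, and those of KO do not, with a rho of 0.12.

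Some features of the annotation bear on single values. In 32 of 45 release genes the expected counts of all 4 mutant libraries were whole within 0.005, and in the other 13 they were not. An exon of another gene overlaps 15 of the 45 genes, on the opposite strand in all but Bsn, among them Rab3b (8030443G20Rik), Synj1 (4930404I05Rik), Syn1 (Araf), Rab3a (Mpv17l2) and Doc2a (Ino80e). Reads of such partners cannot be told apart without strand. In 34 of 45 genes GENCODE lists a transcript shorter than 1000 bases, and the lengths used by the mutant tables ran from 977 bases for Rims3 to 17298 for Pclo. For Rims2 that length was 6035 bases, where the longest GENCODE transcript has 4800, and for Syn3 it was 8625, where the longest has 4775. FPKM are divided by transcript length, and the part of this in the values of Rims2 and Syn3 was not tested. The upper confidence bound of Cufflinks lay between 1.79 and 70.1% above the value of a release gene in a control library, and covers the estimate of that library only.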

How the data were processed

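Hippocampal RNA-seq of 8 libraries in 4 groups of 2 was used, grouped by the genotype and title in the labels. For mutants the authors deposited tables with an expected count (an estimated read count), FPKM and a transcript length for each gene, per the file headers. For controls the authors deposited FPKM with confidence bounds, without read numbers. The submitters' processing notes name HISAT, Bowtie 1 and build mm9 for every sample, and Cufflinks for the wild-type ones alone, yet positions of control genes match GRCm38. The program behind the expected counts and any use of strand are not given in the sources used here.

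Mutant genes were joined to control genes by symbol (17593) or by an Entrez table (85), and 6 with a repeated identity were dropped, which left 17678 of 18022. Genes outside the join held 0.988 to 1.19% of the expected counts. FPKM were divided by median-of-ratios factors of 0.946 to 1.06. Genes that averaged 1 FPKM or more were tested with limma 3.58.1 (trend option) on log2(scaled FPKM + 1), which understates changes of low genes, over all 8 libraries with 4 residual degrees of freedom. For KO against Y402F the quasi-likelihood test of edgeR 4.0.16 was run on expected counts rounded to whole numbers, with DESeq2 1.42.0 as an alternative. As a standard error for edgeR, the size of the log2 difference was divided by the square root of the test statistic. P-values were adjusted over all genes tested by the Benjamini-Hochberg method, and genes with an adjusted p under 0.05 are said to be called. Both tests were tested on simulated data. Alternatives were no scaling, quantile normalization, a pseudocount of 0.1, no filter, no trend, a block for the replicate number, a term for the Y-linked pattern, only the 4 libraries compared, and each library left out.

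The text names every member called in any comparison, the 3 largest differences of each sign, the most abundant member of each role, and up to 3 called genes of each pathway list with the smallest p, apart from 1 gene that is not reported here; any other gene was picked with its values in view. Members and lists were chosen with earlier results of these data known. Vamp7 and the markers Tubb3 and Reln were not analysed here. Fits ran in R 4.3.3, and tables and figures were made in Python 3.11.15 with numpy 2.4.6, pandas 2.3.3 and matplotlib 3.10.9.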

Additional observations from a re-analysis of the deposited data

How the results depend on the processing

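Counts of release genes called kept within 1.5 times of those reported under most alternatives. The exceptions were the KO line, with 15 without the intensity trend and 13 to 16 when 1 library was left out, and the wild-type pairs, with 6 under quantile normalization, 1 (Sv2a) with the replicate block and 10 with the term for the Y-linked pattern. In the Y402F line 12 to 16 were called when 1 library was left out. The difference of the mutant effects gave 1 with the term for the Y-linked pattern, against 135 of all 12954 genes. Over all genes, 4594 were called without the intensity trend in the KO line. Between the wild-type pairs 730 were called under quantile normalization, 1062 with the replicate block and 1280 with the term for the Y-linked pattern. Among differences that were called or were 1 of the 3 largest of their sign, the sign turned in 2, that of Dnm1 in the KO line under quantile normalization (0.020) and that of Pclo in KO against Y402F when 1 library was left out (-0.34 to 0.027, the highest without the first Y402F library); the cause was not tested. Scaling turned the sign of further differences that were not called, 14 in the KO line, 11 in the Y402F line, 2 between the wild-type pairs and 3 in the difference of the mutant effects. Of the differences so chosen in the KO line, 210 recomputed values kept their direction and their side of the threshold and 65 lost the call, and in the Y402F line these were 180 and 24. The replicate number does not pair the samples by any label. Its block changed no other count of release genes called, and same-numbered libraries of KO and Y402F deviated together with a correlation over genes of 0.20, while the other 5 pairs of groups lay between -0.031 and 0.049. In KO and Y402F the number coincides with the Y-linked pattern, so both terms give the same fit there. Neither control pair varies in the pattern, so in the fits over all 8 libraries its term rests on the mutant replicates alone. With 2 libraries a group and an unknown depth of the controls, small differences were not detectable.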
